A study of Mus musculus with 16 samples.

Results

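Peaks of Jarid2 and of its form with a di-methylated lysine (Jarid2-K116me2) were examined at 39 genes of the extracellular side of Wnt signaling in mouse embryonic stem cells (ESC), out of 22350 protein-coding genes. These were all 19 Wnt ligands, all 10 Frizzled receptors and 10 secreted inhibitors (Sfrp1, Sfrp2, Sfrp4, Sfrp5, Frzb, Dkk1 to Dkk4 and Wif1), taken by their membership of these families. A gene was counted as having a peak when a listed peak overlapped it or lay within 5 kb of it in the GENCODE annotation of NCBIM37, the build that matches the mm9 coordinates of the files. The Jarid2 and Jarid2-K116me2 chromatin immunoprecipitations (ChIP-seq) were each made in 1 sample of E14 ESC grown in serum with LIF, the cytokine that keeps ESC undifferentiated, so their values have no replicate error. The same genes were followed in 12 H3K27me3 ChIP-seq libraries. These came from Jarid2 -/- ESC (KO), from the same cells carrying a BAC transgene with Jarid2 (WT rescue) and from the same cells carrying a BAC in which this lysine of Jarid2 is changed to alanine (K116A rescue), all in serum with LIF, and from embryoid bodies (EB) of these 3 lines, started in hanging drops, moved to low-adherence plates and collected after 8 days without LIF. Each of these 6 groups had 2 biological replicates, every group lacked the endogenous Jarid2 gene, and the rescued lines carried the transgene integrated by a transposon.

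Wnt ligands are secreted lipid-modified glycoproteins that bind Frizzled receptors at the cell surface. Together with Lrp co-receptors, some of these pairs stabilize beta-catenin and activate target genes, whereas others act on cell shape and planar polarity. The Sfrp family with Frzb and Wif1 capture ligands outside the cell, and the Dkk proteins Dkk1, Dkk2 and Dkk4 bind the Lrp co-receptors. In early embryos the ligands are switched on in restricted places, such as Wnt3 in the primitive streak, and Polycomb complexes cover many such developmental genes in ESC. Jarid2 is a DNA-binding partner of Polycomb repressive complex 2 (PRC2), which tri-methylates lysine 27 of histone H3 (H3K27me3) and also methylates Jarid2 itself.

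Nearly every gene of the ligand and receptor families had a Jarid2 peak in E14 ESC. A peak was found at 35 of the 39 genes (89.7%), against 18.1% of all protein-coding genes, and a Jarid2-K116me2 peak at 33 (84.6%), against 16% of all protein-coding genes. All 19 ligands had peaks of both antibodies. Among the receptors, 9 of 10 had a Jarid2 peak and 8 of 10 a Jarid2-K116me2 peak, and among the inhibitors 7 of 10 and 6 of 10. A Jarid2 peak lay over an annotated transcription start site of 29 genes (13.5% of all protein-coding genes had this) and a Jarid2-K116me2 peak over a start site of 28 (11.9% of all protein-coding genes). No peak of either antibody was found at the receptor Fzd5 or at the inhibitors Sfrp4, Dkk3 and Dkk4. Fzd3 and Wif1 had a Jarid2 peak without a Jarid2-K116me2 peak, but their Jarid2 scores (77.0 and 63.6) were under the lowest score of the Jarid2-K116me2 list (91.9). With the same lowest score in both lists, each antibody had a peak at 33 genes, with 8 receptors and 6 inhibitors for both. The count is that of 1 sample per antibody and of genes chosen as families, so it was not tested.

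**Figure D1:**
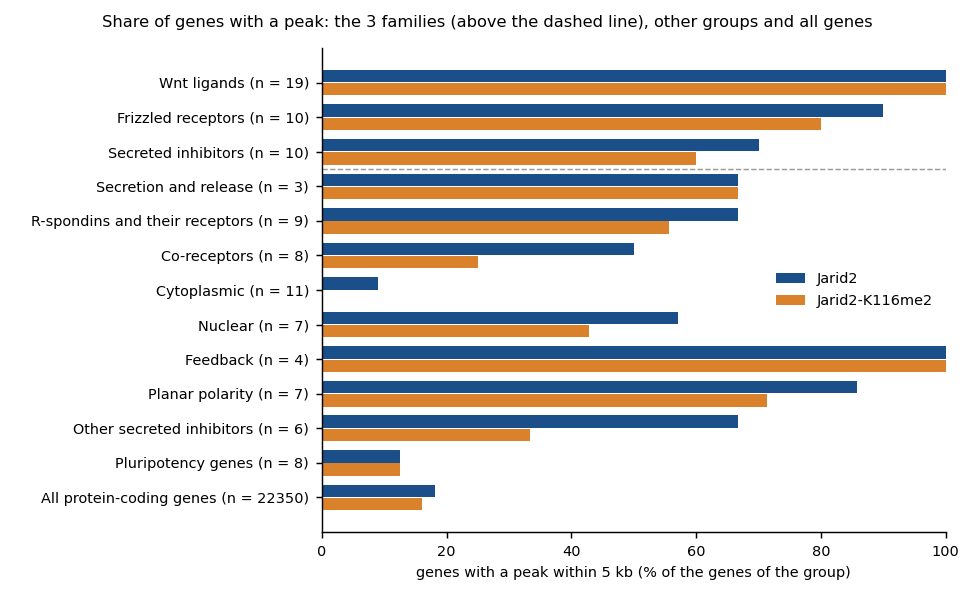
Share of genes with a peak within 5 kb (horizontal axis, percent) for Jarid2 (blue) and Jarid2-K116me2 (orange), with the number of annotated genes of each group in brackets. The ligands reached 100% for both antibodies, the receptors 90% and 80% and the inhibitors 70% and 60%, against 18.1% and 16% of all protein-coding genes.

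The bases just before the start sites of 8 of these genes are shown because they contrast start sites under strong peaks with those of Fzd5, Dkk3 and Dkk4, which had no peak. Each line gives the 300 bases before the first annotated base of the gene, 5′ to 3′ on the strand of the gene, from the mm9 genome, with every CG dinucleotide in capitals. The first 5 lie wholly inside peaks of both antibodies: Wnt1 (chr15:98619988-98620287, plus strand), Wnt2 (chr6:17980586-17980885, minus strand), Wnt3 (chr11:103635164-103635463, plus strand), Fzd1 (chr5:4758217-4758516, minus strand) and Frzb (chr2:80287783-80288082, minus strand). The last 3 belong to genes without a peak: Fzd5 (chr1:64784325-64784624, minus strand), Dkk3 (chr7:119302572-119302871, minus strand) and Dkk4 (chr8:23734215-23734514, plus strand).
Wnt1: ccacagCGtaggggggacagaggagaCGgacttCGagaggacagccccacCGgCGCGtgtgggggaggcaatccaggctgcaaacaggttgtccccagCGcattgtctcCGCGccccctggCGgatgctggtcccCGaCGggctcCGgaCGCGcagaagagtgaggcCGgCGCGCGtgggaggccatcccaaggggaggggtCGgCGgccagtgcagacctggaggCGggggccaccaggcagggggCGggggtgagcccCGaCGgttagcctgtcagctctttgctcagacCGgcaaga
Wnt2: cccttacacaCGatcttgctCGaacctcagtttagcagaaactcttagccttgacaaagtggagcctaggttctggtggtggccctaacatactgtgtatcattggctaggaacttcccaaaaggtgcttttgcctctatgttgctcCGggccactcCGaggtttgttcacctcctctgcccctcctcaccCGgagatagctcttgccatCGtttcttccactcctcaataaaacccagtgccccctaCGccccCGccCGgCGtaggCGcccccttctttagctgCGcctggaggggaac
Wnt3: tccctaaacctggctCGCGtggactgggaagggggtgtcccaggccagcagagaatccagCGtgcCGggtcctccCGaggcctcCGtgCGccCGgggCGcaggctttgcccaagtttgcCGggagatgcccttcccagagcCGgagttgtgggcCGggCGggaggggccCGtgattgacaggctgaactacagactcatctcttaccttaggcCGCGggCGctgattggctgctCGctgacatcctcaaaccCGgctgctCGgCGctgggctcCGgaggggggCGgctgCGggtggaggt
Fzd1: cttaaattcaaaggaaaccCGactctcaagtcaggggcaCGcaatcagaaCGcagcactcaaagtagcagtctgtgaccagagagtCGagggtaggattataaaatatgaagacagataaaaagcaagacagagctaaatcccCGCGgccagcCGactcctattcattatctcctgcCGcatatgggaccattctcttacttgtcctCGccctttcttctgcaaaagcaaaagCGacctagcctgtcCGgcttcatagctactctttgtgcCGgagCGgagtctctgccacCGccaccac
Frzb: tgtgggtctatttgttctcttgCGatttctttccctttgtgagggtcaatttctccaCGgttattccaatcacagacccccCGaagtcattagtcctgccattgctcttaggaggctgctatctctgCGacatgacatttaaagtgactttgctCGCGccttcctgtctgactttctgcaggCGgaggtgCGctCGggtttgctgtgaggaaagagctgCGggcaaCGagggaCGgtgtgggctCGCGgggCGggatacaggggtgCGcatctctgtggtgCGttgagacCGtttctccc
Fzd5: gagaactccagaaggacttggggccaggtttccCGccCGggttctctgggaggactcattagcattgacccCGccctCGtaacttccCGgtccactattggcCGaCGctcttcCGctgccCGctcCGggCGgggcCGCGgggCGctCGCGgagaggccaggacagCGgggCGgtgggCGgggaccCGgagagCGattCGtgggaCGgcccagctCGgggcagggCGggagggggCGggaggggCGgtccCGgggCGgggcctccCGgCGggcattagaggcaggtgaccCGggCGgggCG
Dkk3: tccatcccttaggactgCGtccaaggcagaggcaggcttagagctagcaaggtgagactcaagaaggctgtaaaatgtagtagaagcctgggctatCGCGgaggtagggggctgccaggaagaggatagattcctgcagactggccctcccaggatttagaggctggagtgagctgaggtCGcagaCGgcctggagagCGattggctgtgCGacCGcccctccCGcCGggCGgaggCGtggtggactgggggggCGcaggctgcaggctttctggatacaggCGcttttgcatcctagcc
Dkk4: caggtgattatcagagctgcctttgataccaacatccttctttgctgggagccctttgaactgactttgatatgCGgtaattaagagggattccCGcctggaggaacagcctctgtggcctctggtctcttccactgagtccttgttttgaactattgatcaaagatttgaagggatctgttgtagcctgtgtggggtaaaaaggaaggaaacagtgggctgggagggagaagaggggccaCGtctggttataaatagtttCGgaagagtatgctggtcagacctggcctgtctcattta
These stretches held 26 CG dinucleotides at Wnt1, 12 at Wnt2, 24 at Wnt3, 14 at Fzd1 and 18 at Frzb. Of the 3 genes shown without a peak, Dkk4 held 4, Dkk3 14 and Fzd5 34. The median was 9 over all protein-coding genes and 15.5 over those with a Jarid2 peak, so Wnt2 and Fzd1 were under the latter and Fzd5 above it.

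The CpG content around the start was highest at the receptors, although their peaks were weaker than those of the ligands. It was measured as the observed number of CG dinucleotides over the number expected from the C and G content, within 500 bases on each side of the 5′ start. The median ratio was 0.731 for the ligands, 0.808 for the receptors and 0.554 for the inhibitors, against 0.549 over all protein-coding genes and 0.671 over those with a Jarid2 peak. All 10 receptors reached 0.6, as did 14 of the 19 ligands and 5 of the 10 inhibitors, against 45.6% of all protein-coding genes. Fzd5, a receptor with roles in the eye and the gut, had a ratio of 0.794 and no peak, and Fzd3 had 1.03 with only a weak Jarid2 peak. Conversely Wnt8a (0.254), Wnt8b (0.327), Wnt16 (0.352) and Wnt10a (0.395) had the lowest ratios of the ligands, and all 4 had peaks of both antibodies. The other 3 genes without a peak had ratios of 0.503 (Sfrp4), 0.426 (Dkk3) and 0.305 (Dkk4). Within the Jarid2 peaks at the 39 genes, which were longer than the list as a whole (median 2670 against 1877 bp), the median ratio was 0.486 over 55 peaks, against 0.573 over all 4992. For Jarid2-K116me2 the medians were 0.555 over 48 peaks and 0.616 over 4502.

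**Figure D2:**
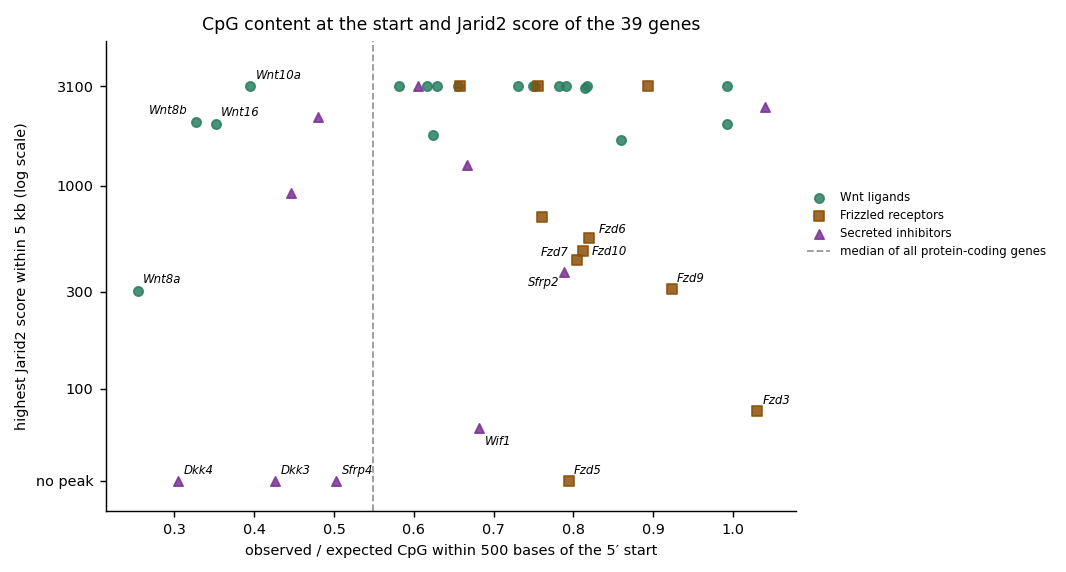
Observed over expected CpG within 500 bases of the 5′ start (horizontal axis) against the highest Jarid2 score within 5 kb (vertical axis, log scale, with the genes without a peak at the bottom) for ligands (circles), receptors (squares) and inhibitors (triangles). The dashed line is the median of all protein-coding genes (0.549). Fzd5 has no peak at a ratio of 0.794, and Wnt10a has a score of 3100 at 0.395.

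The Jarid2 peaks of the ligands were also the highest and longest of the 3 families. The strength of a peak is given by its MACS score, the negative log10 of its p-value multiplied by 10, which grows with read number and piles up at 3100, so it does not rank genes that reach this value. The median of the highest Jarid2 score per gene was 3100 over the ligands, 550.6 over the 9 receptors with a peak and 1262 over the 7 inhibitors with a peak, against 745.5 over all 4052 protein-coding genes with a peak. The value 3100 was reached by 12 of 19 ligands, 3 of 9 receptors and 1 of 7 inhibitors, and by 19.9% of the protein-coding genes with a peak. For Jarid2-K116me2 it was reached by 13 of 19 ligands, 3 of 8 receptors and 1 of 6 inhibitors (26.5% of the protein-coding genes with a peak). The summed length of the Jarid2 peaks of a gene had a median of 6717 bp for the ligands, 3262 bp for the receptors and 3351 bp for the inhibitors, against 2380 bp over all protein-coding genes with a peak. More than 1 Jarid2 peak was found at 10 ligands, 3 receptors and 1 inhibitor (20.4% of the protein-coding genes with a peak). These values were taken over the whole gene with 5 kb on each side, so a longer gene has more room for peaks. Gene length was not adjusted for. A Jarid2 peak lay over a start site at 17 of 19 ligands, 6 of 10 receptors and 6 of 10 inhibitors, against 13.5% of all protein-coding genes. These summaries describe families of genes within 1 sample, and no test between the families was made.

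**Figure D3:**
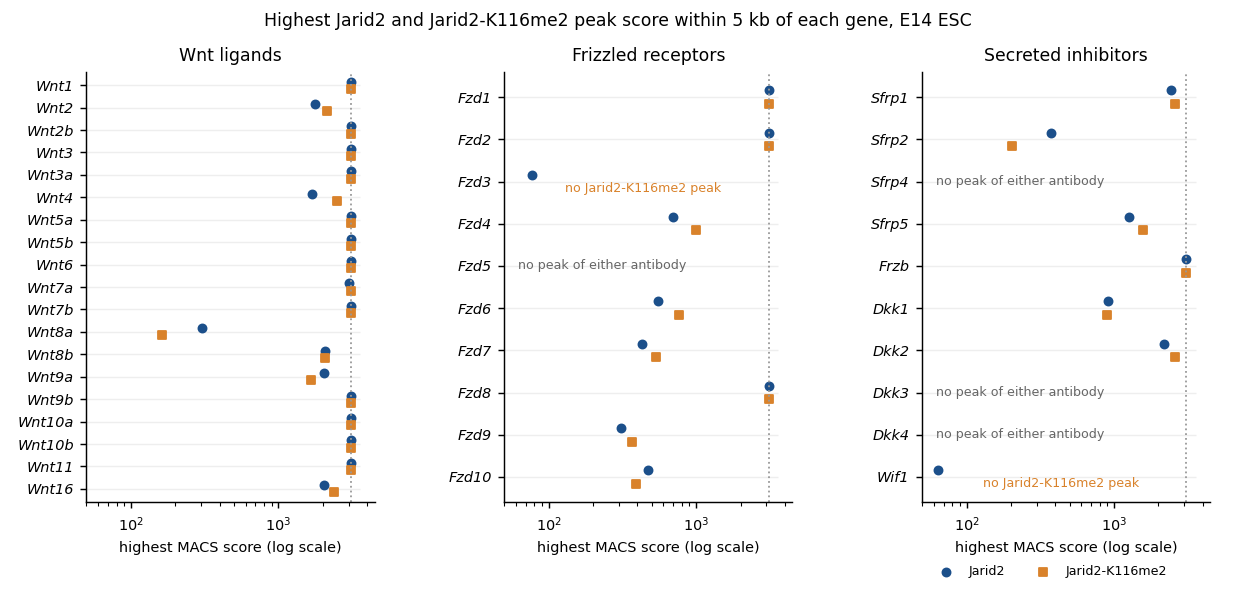
Highest MACS score within 5 kb of each gene (horizontal axis, log scale) for Jarid2 (blue circles) and Jarid2-K116me2 (orange squares) in E14 ESC, 1 sample per antibody. The dotted line marks 3100, where the scores pile up. It is reached for Jarid2 by 12 ligands, by Fzd1, Fzd2 and Fzd8 and by Frzb.

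Among the ligands at 3100, Wnt10a, Wnt3 and Wnt6 had the longest peaks in sum. Wnt10a, which acts in teeth and other ectodermal organs, had 4 Jarid2 peaks that summed to 18069 bp and 3 Jarid2-K116me2 peaks that summed to 14004 bp. Wnt3, which is needed to form the primitive streak, had 4 Jarid2 peaks over 16680 bp and 4 Jarid2-K116me2 peaks over 12025 bp. Wnt6, a ligand of epithelia, had 3 Jarid2 peaks over 16646 bp and 2 Jarid2-K116me2 peaks over 6666 bp. The Jarid2 sum of Wnt6 includes a peak of 7888 bp over the start of Wnt10a, which is counted for both genes. Its other Jarid2 peaks were 5892 and 2866 bp long, so the place of Wnt6 before Wnt5a (14982 bp in sum) rests on the shared peak.

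Not all of these peaks lay at the start of the gene. Wnt3 (chr11:103635464-103679271, plus strand) had a Jarid2 peak of score 3100 over its start site (chr11:103631190-103637671). A second peak of the same score lay within the gene (chr11:103667969-103675126), with its midpoint in an intron 36084 bases from the start. Both carried Jarid2-K116me2 peaks of 3100. Between them lay a weaker intronic peak (436.0 for Jarid2, 275.3 for Jarid2-K116me2) and a Jarid2 peak of 66.2 that no Jarid2-K116me2 peak overlapped. By their midpoints, the inner Jarid2 peak of 3100 and that of 66.2 were closer to a start site of Nsf, another protein-coding gene, than to that of Wnt3.

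Wnt10a and Wnt6 are neighbors on chromosome 1, 6196 bases apart and on the same strand, and they shared a peak. The shared Jarid2 peak (chr1:74835958-74843845, score 3100) covered the start of Wnt10a and lay 4064 bases beyond the end of Wnt6, just inside the limit of 5 kb. The Jarid2-K116me2 peak at this place (score 3100) lay 5047 bases from Wnt6, just outside the limit, and therefore counted for Wnt10a only. Wnt6 had its own peak of 3100 over its start site with both antibodies, so it kept a peak without the shared one. A further Jarid2 peak of 3100 ran from inside Wnt10a past its end (chr1:74844921-74853353).

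The remaining ligands with a Jarid2 score of 3100 were Wnt1, Wnt2b, Wnt3a, Wnt5a, Wnt5b, Wnt7b, Wnt9b, Wnt10b and Wnt11, and each of these also reached 3100 for Jarid2-K116me2. Wnt5a, the main ligand of the beta-catenin independent branch, had the longest peak over a start site, with 12366 bp for Jarid2 (chr14:29316781-29329146). Under this value came Wnt7a with 3036 for Jarid2 and 3100 for Jarid2-K116me2, Wnt8b with 2077 and 2085, Wnt16 with 2029 and 2373, and Wnt9a with 2027 and 1655. Wnt2, a ligand of lung development, had 1773 and 2146, and Wnt4, of kidney and ovary, had 1681 and 2500.

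Wnt8a, an early ligand of the gastrulating embryo, was the weakest. Its Jarid2 peaks had scores of 304.1 and 221.4 and its Jarid2-K116me2 peak 161.8, and none of them covered the start site. The higher Jarid2 peak lay 1778 bases beyond the end of the gene. At Wnt8b the peaks of both antibodies were also away from the annotated start, with the midpoint of the Jarid2 peak in an exon 18130 bases downstream (chr19:44584427-44587756). By their midpoints, both Wnt8b peaks were closer to a start site of Sec31b, another protein-coding gene, than to that of Wnt8b.

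The receptors divided into a strong and a weak set. Fzd8 had a Jarid2 peak of 7904 bp, Fzd1 of 5051 bp and Fzd2 peaks that summed to 4914 bp, and all 3 genes reached 3100 with both antibodies. Fzd4, the receptor of retinal vessels, followed with 699.5 for Jarid2 and 998.1 for Jarid2-K116me2, Fzd6 with 550.6 and 762.8, Fzd10 with 475.1 and 391.8, Fzd7 with 431.4 and 531.3, and Fzd9 with 308.7 and 364.8. The highest peaks at Fzd9 and Fzd10 lay over an exon and did not reach the start site, and Fzd10 had a further 2 Jarid2 peaks upstream (75.2 and 165.1) that no Jarid2-K116me2 peak overlapped. Fzd3, a receptor of planar polarity and axon guidance, had 1 Jarid2 peak of 666 bp with a score of 77.0 (chr14:65880197-65880862) in an intron, 698 bases from the start to its midpoint. For Fzd5 the nearest Jarid2 peak lay 343904 bases away and the nearest Jarid2-K116me2 peak 1729687 bases away.

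Among the inhibitors only Frzb, a ligand-binding protein of cartilage, reached 3100, in 1 peak of 3495 bp over its start (chr2:80285197-80288691). Sfrp1 had 2438 for Jarid2 and 2613 for Jarid2-K116me2, and Dkk2 had 2198 and 2604. Sfrp5 followed with 1262 and 1580, Dkk1, an inducer of the head, with 917.2 and 895.7, and Sfrp2 with 376.8 and 202.0. Wif1 had 1 Jarid2 peak of 693 bp with a score of 63.6, close to the lowest score of the list (62.1). The nearest Jarid2 peak lay 65649 bases from Dkk3, a divergent Dkk that is not known for binding Lrp co-receptors, 345937 bases from Dkk4 and 456198 bases from Sfrp4.

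Peaks of the 2 antibodies largely coincided at these genes, as they did over the whole lists. The 39 genes held 55 distinct Jarid2 peaks and 48 Jarid2-K116me2 peaks. All 48 of the latter shared bases with the former, as did 98.7% of the whole Jarid2-K116me2 list. In the other direction 44 of 55 shared bases (80%), and 79.1% of the whole Jarid2 list did. The 11 Jarid2 peaks without an overlap lay at 10 genes, had scores of 63.6 to 304.1 with a median of 86.3, and in no case covered a start site. The same values were not taken for such peaks over the whole list, so they do not set these genes apart. Both scores were under 3100 at 16 genes, and the Jarid2-K116me2 score was the higher at 11 of them (68.8%), against 57.2% of 2555 protein-coding genes. The largest differences of score, as log2 of Jarid2-K116me2 over Jarid2, were +0.57 at Wnt4, -0.90 at Sfrp2 and -0.91 at Wnt8a. The Jarid2 list reached down to 62.1 and the other to 91.9, and the score moves with read number, so these differences are given as values only.

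Elsewhere in the Wnt pathway the share of genes with a peak varied from group to group. Of 56 other Wnt pathway genes 55 were found in the annotation, and 31 of these (56.4%) had a Jarid2 peak and 23 (41.8%) a Jarid2-K116me2 peak. The 4 genes listed here as feedback genes all had peaks of both antibodies. Their Jarid2 scores were 1967 at Nkd1, 1481 at Axin2, 473.2 at Nkd2 and 467.7 at Apcdd1. This short list does not hold every gene that dampens the signal. Of a group of R-spondins, Lgr receptors, Rnf43 and Znrf3, 6 of 9 had a Jarid2 peak, led by Lgr5 with 2679 and Rspo2 with 2512. Lgr4, Rnf43 and Znrf3 had no peak of either antibody. Jarid2 peaks were found at 6 of 7 planar polarity genes, 4 of 8 co-receptors, 4 of 7 nuclear factors, 4 of 6 other secreted or Dact inhibitors and 2 of 3 genes of ligand secretion and release, and Jarid2-K116me2 peaks at 5, 2, 3, 2 and 2 of them. Among the nuclear factors Lef1 reached 3100 and Tcf7l1 had no peak. Of the 11 cytoplasmic components, which include Ctnnb1 (beta-catenin), Apc, Gsk3b and the Dvl genes, only Axin1 had a Jarid2 peak (190.9) and none a Jarid2-K116me2 peak. Of 8 pluripotency genes, Esrrb alone had a peak (2868 for Jarid2 and 3073 for Jarid2-K116me2), and Pou5f1, Nanog and Sox2 had none. These other genes were listed by role with earlier results of the data in view, and their shares were not tested.

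The H3K27me3 libraries differed widely in how many regions were listed, which bears on each comparison that follows. The number of regions ran from 1478 in replicate 1 of the WT rescue ESC to 14125 in replicate 2 of the KO EB. Of the 39 genes, 11 and 32 were the lowest and highest numbers with a region in a library, and the lowest was that same WT rescue ESC replicate. The value used is the highest score of a region within 5 kb of the gene, as listed by the peak caller, whose exact definition is not given in the sources used here. A gene without a listed region was set to 0, which means that no region passed the threshold of the caller and not that the mark was absent. In ESC, H3K27me3 was listed at 23 and 32 of the 39 genes in the KO replicates, 11 and 30 in the WT rescue replicates and 27 and 32 in the K116A rescue replicates. The study's supplement describes replicates 2 as being of higher quality.

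**Figure D4:**
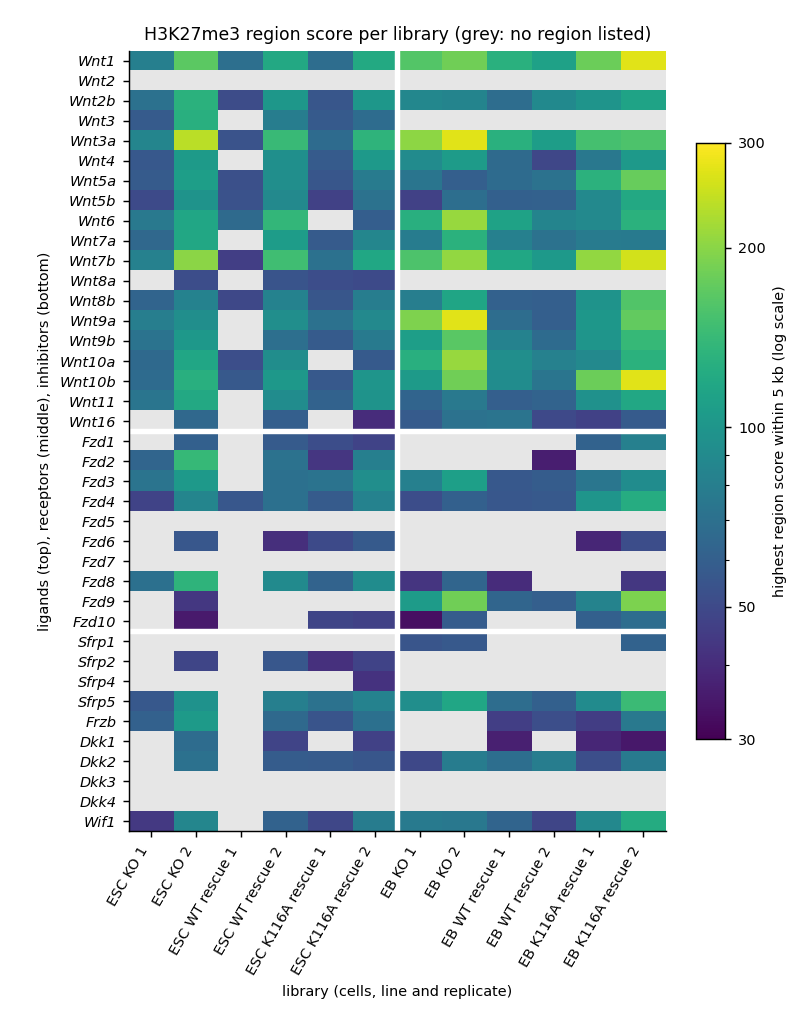
Highest H3K27me3 region score within 5 kb of each of the 39 genes (rows) in the 12 libraries (columns), on a log color scale, with grey where no region was listed. Wnt2, Fzd5, Fzd7, Dkk3 and Dkk4 are grey throughout, 9 genes have a region in every library, and the column of WT rescue ESC replicate 1 has regions at 11 genes only.

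Most genes with Jarid2 peaks also had H3K27me3. A region was listed in at least 1 library at 33 of the 35 genes with a Jarid2 peak (94.3%), against 94.1% of all 4052 protein-coding genes with a peak. Regions were listed in all 12 libraries at 9 genes: Wnt1, Wnt2b, Wnt3a, Wnt5a, Wnt5b, Wnt7b, Wnt8b, Wnt10b and Fzd4. At Wnt8b only 3 of the 12 libraries had a region within 5 kb of its start. Of the 9793 protein-coding genes with a region in any library, 7.91% had a region in all 12. The scores at Wnt1, which patterns the midbrain, ran from 68.3 to 168.6 over the 6 ESC libraries and from 112.2 to 269.7 over the 6 EB libraries, so that the stages overlapped. At Wnt3a they ran from 53.9 to 236.7 in ESC and from 108.1 to 269.7 in EB.

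The other genes lacked a region in some libraries. At Wnt4, Wnt7a, Wnt9a, Wnt9b, Wnt11 and Sfrp5 the only library without one was replicate 1 of the WT rescue ESC, which held the fewest regions. Wnt6 and Wnt10a lacked it only in replicate 1 of the K116A rescue ESC. Wnt16 had regions in 3 ESC libraries (40.3 to 65.6) and in all 6 EB libraries (46.7 to 73.0), and Dkk2 in 4 (55.5 to 70.8) and 6 (49.6 to 79.3). In some libraries the highest Dkk2 score came from a region 64315 to 64551 bases from the start that overlapped no Jarid2 peak. These were KO replicate 2, WT rescue replicate 2 and K116A rescue replicate 1 of ESC and both WT rescue EB replicates. In them the region at or near the start scored 37.35 to 56.97. Fzd8 had 62.4 to 134.2 in 5 ESC libraries and 40.1 to 63.5 in 4 EB libraries, and Dkk1 had 46.8 to 67.5 in 3 and 34.9 to 38.4 in 3.

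At 5 of the 39 genes no library had a region, which was the case at 56.2% of all protein-coding genes. These were Fzd5, Dkk3 and Dkk4, which also lacked Jarid2 peaks, and Wnt2 and Fzd7, which had them. Wnt2 combined strong Jarid2 peaks with no listed H3K27me3. Its Jarid2 score was 1773 and its Jarid2-K116me2 score 2146, both peaks covered its start site, and the nearest H3K27me3 region in any library was 7101 bases away. Of 1259 protein-coding genes with a Jarid2 score at least as high as that of Wnt2, 2 had no region in any library (0.159%), Wnt2 among them. Fzd7, a receptor known from pluripotent cells, had a Jarid2 score of 431.4 and its nearest region 18324 bases away. In the opposite direction, Fzd3 and Wif1 had H3K27me3 in 11 of 12 libraries beside weak Jarid2 peaks without Jarid2-K116me2. Sfrp4 had no Jarid2 peak and 1 region of 308 bp, in replicate 2 of the K116A rescue ESC (42.1). The scores at Fzd3 ran from 70.3 to 104.0 in the 5 ESC libraries with a region and from 56.5 to 109.8 over the 6 EB libraries, and the regions covered its start in 7 libraries.

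H3K27me3 regions over start sites had larger median widths than the Jarid2 peaks over start sites in all 3 families. Regions over a start site had a median width of 7712 bp at the ligands, 6127 bp at the receptors and 4066 bp at the inhibitors, whereas the Jarid2 peaks over a start site had medians of 5501, 2726 and 3073 bp. The regions were called as broad regions and pooled over 12 libraries (147, 14 and 32 regions), so 1 gene can count several times. The Jarid2 peaks came from another caller setting and 1 E14 sample (17, 6 and 6 peaks). The part of these differences in the widths was not tested. The widest region, of 46717 bp, spanned Wnt1 and Wnt10b, which lie 11706 bases apart on opposite strands of chromosome 15. A region common to both was listed in 3 libraries, namely replicate 2 of the KO EB and both replicates of the K116A rescue EB. Wnt6 and Wnt10a lay under a common region in 8 libraries, among them all 6 EB libraries, and Wnt3a and Wnt9a in 1 library. Neighbors under 1 region have the same score, so these pairs are not independent.

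Between ESC and EB, 1 of the 39 genes rose and 1 fell in H3K27me3 score. The values were compared by limma over all genes with a region in at least 2 libraries, on log2 of the score plus 1, with the mean of the 3 EB groups set against the mean of the 3 ESC groups. Since a gene without a region enters as 0, a difference of 4 or more on this scale stands for a region listed in one stage and mostly not in the other. Of 8069 genes tested, 15.9% were called higher in EB and 0.942% lower. The median difference was 1.43 over all genes tested and 0.73 over the 33 of the 39 genes that could be tested.

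Fzd9, a receptor of brain and bone, rose. In ESC a region was listed only in KO replicate 2 (43.6), and the other 5 libraries had none. In EB the scores were 106.6 and 181.6 in the KO line, 63.6 and 60.3 in the WT rescue and 84.0 and 189.8 in the K116A rescue. Every EB library was thus above every ESC library, which held for 3.31% of the genes with a region in any library. The difference was 5.79 (SE 0.89, adjusted p = 0.002759 by limma). All 7 regions overlapped its Jarid2 peak and none reached the start site.

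Wnt3 fell. In ESC its scores were 58.1 and 128.7 in the KO line, 0 and 79.4 in the WT rescue and 57.6 and 67.6 in the K116A rescue, and no region was listed in any of the 6 EB libraries. The stages did not overlap except for the WT rescue ESC replicate 1, which was also at 0. The difference was -5.20 (SE 1.01, adjusted p = 0.008335 by limma). In the 5 ESC libraries with regions, these lay over both strong Jarid2 peaks of the gene, at the start and within it. The inner of these Jarid2 peaks is closer to a start site of Nsf than to that of Wnt3. Fzd9 and Wnt3 passed the threshold in 20 of 20 alternative fits, with adjusted p by limma of up to 0.02333 and 0.04038. In KO replicate 2 a region of 17952 bp ran through the body of Wnt3.

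Wnt8a and Sfrp2 had the same pattern over the libraries, with less support. Like Wnt3, both had a region in all 3 ESC replicates 2 and in no EB library, which was seen at 3.16% of the genes with a region in any library. The scores of Wnt8a in the ESC libraries with a region were 50.1 to 54.7, and the difference was -3.82 (SE 1.27, adjusted p = 0.0681). For Sfrp2 they were 41.2 to 56.0 and the difference was -3.74 (SE 1.26, adjusted p = 0.0707 by limma). Unlike at Wnt3, no region at Wnt8a reached the start site, and only 2 of its 4 libraries had a region within 5 kb of it. The regions that gave the Wnt8a scores began close to the end of the gene or beyond it. Fzd2, with scores of 43.2 to 139.9 in 5 ESC libraries and 36.3 in 1 of 6 EB libraries, had a difference of -4.32 (SE 1.28, adjusted p = 0.0623). Sfrp1 had no region in ESC and one in 3 EB libraries (difference 2.94, SE 0.94, adjusted p = 0.0635). Limma placed these 4 genes above the threshold of 0.05. At an unadjusted p under 0.05, 7 of the 33 genes differed, against 32.9% of all genes tested.

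In EB, the line without Jarid2 and the line rescued with Jarid2 differed at none of the 33 genes after adjustment. Over all genes tested limma called 9.78% between KO and WT rescue EB, and 3 of the 33 genes had an unadjusted p under 0.05, against 18.7% of all genes tested. These 3 were Fzd10, Sfrp1 and Frzb. Both KO EB libraries were above both WT rescue EB libraries at 18 of the 34 genes with a region in any library, and this held for 45.8% of all such genes. The KO EB libraries also held more regions in all (10164 and 14125, against 6852 and 8446), and the part of this difference in the 18 genes was not tested.

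Frzb went against this direction. Its scores were 0 and 0 in the KO EB, 45.9 and 52.1 in the WT rescue EB and 45.8 and 76.1 in the K116A rescue EB, so in EB both KO libraries lay below the other 4. It was the 1 gene of the 34 with both KO libraries under both WT rescue libraries (3.68% of genes with a region in any library), and a region in both WT rescue libraries with none in the KO was seen at 1.23%. The difference was -5.64 (SE 1.67, adjusted p = 0.0844 by limma). In ESC the KO line had regions at Frzb in both replicates (61.5 and 104.9), and these covered the start, as they did in 5 of the 6 ESC libraries. The EB regions were shorter and stood apart from the start, 1503 bases away in both WT rescue libraries and 1361 and 1250 bases away in the K116A rescue libraries.

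Fzd10 and Sfrp1 had the opposite order. Fzd10 had 32.9 and 58.6 in the KO EB, 0 and 0 in the WT rescue EB and 60.8 and 68.3 in the K116A rescue EB (KO minus WT rescue 5.49, SE 1.43, adjusted p = 0.0567). Sfrp1 had 55.1 and 57.0 in the KO EB, 0 and 0 in the WT rescue EB and 0 and 61.8 in the K116A rescue EB (KO minus WT rescue 5.83, SE 1.62, adjusted p = 0.0667). A region in both KO EB libraries and in no WT rescue EB library was found at 15.1% of the genes with a region in any library, so 2 of 34 genes is not more than the background. In ESC, Fzd10 had a region in KO replicate 2 (35.3) and in both K116A rescue replicates (48.7 and 46.7), and none in the WT rescue. The lines were not tested against each other in ESC. The KO score of Fzd10 was close to the lowest score of its library (31.56), and WT rescue ESC replicate 1 held the fewest regions of all libraries. Sfrp1 had no region in any ESC library.

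**Figure D5:**
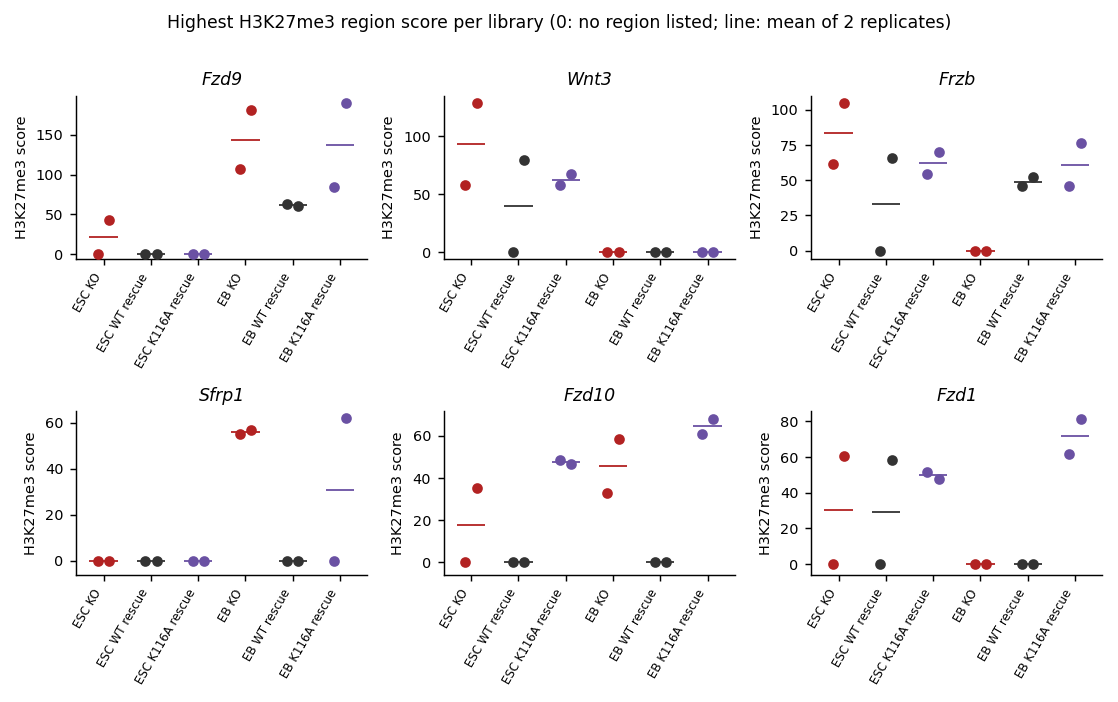
Highest H3K27me3 region score (vertical axis, 0 where no region was listed) in each library of the 6 groups for 6 genes, with 2 points per group and a line at their mean. Fzd9 is above 60 in all 6 EB libraries and Wnt3 is at 0 in all 6, whereas Frzb is at 0 in both KO EB libraries and Fzd1 has EB regions in the K116A rescue only.

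The K116A rescue and the WT rescue EB differed at none of the 33 genes after adjustment. Limma called 2.73% of all genes tested, and 6 of the 33 genes had an unadjusted p under 0.05, against 9.27% of all genes tested. All 6 were higher in the K116A rescue. For Fzd10 the difference was 6.03 (SE 1.43, adjusted p = 0.1361), for Fzd1 6.17 (SE 2.26, adjusted p = 0.4351) and for Fzd6 5.5 (SE 2.15, adjusted p = 0.4670). These 3 receptors had a region in both K116A rescue EB libraries and in neither WT rescue EB library, as did 6.25% of the genes with a region in any library. Fzd1 had 61.7 and 81.5 in the K116A rescue EB and 0 in the other 4 EB libraries. Fzd6 had 38.3 and 51.5, and 0 in the other 4.

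The other 3 genes were Wnt5a, Wnt10b and Fzd4, where regions were listed in every library. Wnt5a had 131.7 and 175.9 in the K116A rescue EB, against 67.1 and 71.4 in the WT rescue EB and 73.4 and 60.2 in the KO EB (K116A minus WT rescue 1.13, SE 0.46, adjusted p = 0.5051). Fzd4 had 99.8 and 124.5, against 56.0 and 57.1 and against 51.7 and 60.7 (0.97, SE 0.40, adjusted p = 0.5119). Wnt10b had 179.1 and 269.7, against 91.7 and 73.2 and against 105.5 and 181.3 (1.41, SE 0.55, adjusted p = 0.4670), with a region common to Wnt1 in both K116A libraries. Both K116A rescue EB libraries were above both WT rescue EB libraries at 20 of the 34 genes with a region, beside 31.9% of all such genes, and at none of the 34 were they below (5.25% of all such genes). The K116A rescue EB libraries also had higher scores over all genes with a region (medians of 61.6 and 64.2, against 53.3 and 51.6 in the WT rescue EB) and covered more sequence (23.2 and 37.2 Mb, against 19.6 and 22.5 Mb), and the part of this in the 20 genes was not tested. The 2 comparisons in EB share the WT rescue libraries, so their differences are not independent of each other.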

How the data were processed

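Jarid2 and Jarid2-K116me2 ChIP-seq peaks and H3K27me3 regions were taken as deposited. The authors aligned the reads with Bowtie2 (version 2.1.0) to mm9, removed PCR duplicates, and called peaks against input with MACS (version 1.4.2) for Jarid2 and broad regions with MACS2 (version 2.0.10) for H3K27me3, each replicate on its own. The deposited score of a Jarid2 peak is the negative log10 of its p-value multiplied by 10, and the deposited score of an H3K27me3 region is the one the authors' caller wrote, whose definition is not given in the sources used here. It had been planned as a fold enrichment, and the planned test was kept. The peak lists hold no read counts, so no interval could be given for a peak. The study's supplement lists read totals per library, which were not used here, so scores were not adjusted for depth. The replicates of H3K27me3 are described as biological replicates, so p-values measure the spread between those samples. The study's supplement also describes replicates 2 as being of higher quality, and both replicates were given equal weight here. The input samples have no list used here.

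A peak was assigned to every gene it overlapped by at least 1 base or approached within 5 kb. The highest H3K27me3 score per gene was set to 0 where none was listed and tested as log2(score + 1) with limma (version 3.58.1, R 4.3.3) over the 8069 protein-coding genes with a region in at least 2 libraries, fitting all 6 groups, with Benjamini-Hochberg adjustment and a threshold of 0.05. Differences on this scale depend on the added 1. The fit was tested on simulated data. The members, the lists of other pathway genes and the comparisons were chosen with earlier results of these data known. All 39 genes are described by family, with full values for the 3 of highest Jarid2 score in each family (ties by summed peak length), those lacking a peak, sharing a peak, or called in a contrast. Same-numbered replicates were checked for pairing and distance limits, scores, pseudocounts, scaling, window, block and each replicate left out were varied.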

Additional observations from a re-analysis of the deposited data

How the results depend on the processing

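The number of the 39 genes with a peak stayed between 33 and 35 for Jarid2 and between 31 and 33 for Jarid2-K116me2 in every alternative tried. Counting peaks within 1 kb of a start site lost Wnt8a and Wnt8b for both antibodies, a score of at least 200 lost Fzd3 and Wif1 for Jarid2 and Wnt8a for Jarid2-K116me2, and assigning each peak to the nearest start lost Wnt8b. For H3K27me3, Wnt3 and Fzd9 were called between EB and ESC in all 20 alternatives. A pseudocount of 30, chosen after seeing the data, called 2063 genes between EB and ESC in place of 1362, and 1 of the 39 genes (Fzd10) between KO and WT rescue EB. Dividing scores by the library median also called 1 (Fzd10) there, and moved the median EB minus ESC difference of all genes from 1.43 to 1.57. The covered percent of the window called 5 between EB and ESC (Wnt3, Fzd9, Fzd2, Wnt3a and Wnt7a), and 1255 of all genes between KO and WT rescue EB in place of 789. The cause of these changes was not tested.

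With each replicate left out in turn, where the lone sample is assumed to vary like the other groups, between 2 and 12 of the 39 genes and between 756 and 2947 of all genes were called between EB and ESC. The 12 were called without replicate 2 of the WT rescue ESC, which leaves the library with 1478 regions alone in its group, 6 without replicate 1 of that group, and 4 without KO ESC replicate 1 or K116A rescue ESC replicate 2. The 756 were called without KO EB replicate 2. Between KO and WT rescue EB, 0 to 2 of the 39 genes and 149 to 936 of all genes were called. The 2 were Wnt9a and Frzb without either WT rescue ESC replicate, Fzd10 was called without either KO ESC replicate and Sfrp1 without either K116A rescue EB replicate, and the 149 were called without KO EB replicate 2 (170 without replicate 1). Between K116A and WT rescue EB, 0 to 1 of the 39 genes (Fzd10 without either KO ESC replicate, Sfrp1 without K116A rescue EB replicate 1) and 225 to 346 of all genes were called.

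With the replicate number as a block, 3 of the 39 genes (Fzd2 added) and 1722 of all genes were called between EB and ESC, and 0 of the 39 in both EB comparisons (766 and 221 of all genes). To look for pairing, the difference of replicate 2 minus replicate 1 was taken per gene in each group and correlated between groups. Over 15 pairs of groups the correlations ran from -0.101 to 0.373, with 4 over 0.1. The numbers were not taken to pair the samples in the main fit. A correlation over genes cannot show a shift common to all genes, so this check does not settle the question. In every group replicate 2 had more regions listed than replicate 1. For every group (all 12 samples), the most positive correlation was larger in size than the most negative one. This is a hint from the data and not from the design. Of 1980 values of the 99 differences under the alternatives, 44 changed sign and 0 of these were called.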
